A study of Mus musculus with 8 samples.

Results

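The mRNAs of the translation initiation factors (Eif genes) and elongation factors (Eef genes) were followed in mouse Th1 cells through a knockdown of Pcbp1 and through iron chelation. Members were chosen by name: symbols that open with Eif and a digit, or with Eef and 1 or 2, without pseudogenes. Pdcd4, which does not match this pattern, was added. The rule gave 68 members of 33924 genes in the authors' tables and uses no measured value. It was set with earlier results of these data known. Older symbols are used as the files have them, so Eif2c1 to Eif2c5 are members by name although they encode Argonaute proteins, which act with microRNAs. The study grew Th1 cells, interferon gamma producing T helper cells, from C57BL/6 CD4 T cells. All cells were activated on plates coated for stimulation of CD3 and CD28. The medium of every group held IL-12 (2 ng/ml) and anti-IL-4. In the first experiment, cells transduced with an sh Scramble hairpin (2 libraries) were set beside cells transduced with a hairpin against PCBP1 (2 libraries), and total RNA depleted of ribosomal RNA was sequenced. In the second, cells given DMSO (2 libraries) were set beside cells given CPX, the iron chelator ciclopirox olamine (2 libraries), and the labels name polyA RNA. The hairpin libraries carried no chelator or DMSO by the labels, and the CPX experiment carried no hairpin. Neither the dose and duration of CPX nor the age of the mice or the time since transduction is given in the sources used here.

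Initiation begins when eIF2, bound to GTP, brings the initiator tRNA to the small ribosomal subunit, on which eIF3 is the large scaffold. The cap-binding eIF4E, the scaffold eIF4G and the helicase eIF4A form eIF4F, which loads the mRNA, while the 4E-BPs sequester eIF4E and Pdcd4 inhibits eIF4A. The exchange factor eIF2B recharges eIF2 with GTP, and phosphorylation of eIF2 alpha by stress kinases blocks eIF2B. In elongation, eEF1A delivers tRNA and eEF2 moves the ribosome along, and the kinase eEF2K inhibits eEF2. eIF5A carries hypusine, a modified lysine whose last step is made by the iron enzyme Dohh. In activated T cells the making of these factors accompanies growth and division. PCBP1 is an RNA-binding protein that also hands iron to ferritin.

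RPM here is a gene's deposited value over its library's total, times 1e+06, and the totals were 14174293 to 15518303 in the hairpin libraries and 19193784 to 19662145 in the CPX experiment. These totals are in the units of the deposited values, which look rescaled, so the depth in reads is unknown. Pcbp1 was at 44.0 and 51.7 RPM with the scrambled hairpin and at 15.1 and 16.1 RPM with the Pcbp1 hairpin, a log2 fold change of -1.59 (SE 0.11, limma adjusted p = 2.33e-05). With CPX, Pcbp1 mRNA went from 506 and 538 to 238 and 199 RPM (-1.26, SE 0.20, limma adjusted p = 0.00611, and 0.0583 and 0.0648 without DMSO replicate 1 or 2). The T cell and Th1 genes Cd3e, Cd4, Tbx21 and Ifng were detected in all 8 libraries. The 12 Th1 and CD4 T cell markers summed to 51710 and 42237 RPM with the scrambled hairpin and to 25998 and 20173 RPM with the Pcbp1 hairpin. In the other experiment the same sum was 15294 and 25780 RPM in DMSO and 2929 and 6366 RPM in CPX. Ifng was the largest part in every library, at 50380 and 40950 RPM with the scrambled hairpin and 24820 and 18990 RPM with the Pcbp1 hairpin. It was at 14030 and 23800 RPM in DMSO and 1106 and 4983 RPM in CPX. Other markers of the list went both ways. After the knockdown Cd3e was higher (39.0 and 43.0 to 79.1 and 82.9 RPM) and Cd3d lower (347 and 340 to 169 and 156 RPM). With CPX Cd4 was higher (137 and 226 to 405 and 261 RPM) and Stat4 lower (53.1 and 128 to 30.4 and 22.5 RPM). The part of these differences in the results below was not tested. The CD8 genes Cd8a and Cd8b1 summed to 90.5 and 92.0 RPM in replicate 1 of both hairpin groups and to 11.9 and 11.6 RPM in replicate 2 of both. The macrophage and monocyte markers (5 genes) had a sum of 2.80 and 4.71 RPM in the DMSO libraries and of 67.4 and 46.2 RPM in the CPX libraries, through Itgam, Cd68 and Emr1. Lyz2, also on this list, was at 0 in every library, so it cannot show a difference between groups. Csf1r was at 0.42 RPM at most. The 3 dendritic cell markers summed to 2.95 and 3.22 RPM with DMSO and to 22.8 and 26.0 RPM with CPX. Most of this was Itgax, from 1.17 and 1.28 to 13.3 and 21.7 RPM. Zbtb46 went from 1.68 and 1.79 to 8.91 and 4.26 RPM, and Flt3 was at 0.52 RPM at most. Whether such cells were present, and their part in the results below, was not tested. Between the 2 CPX libraries 11 members differed by over 1.5-fold, the largest being Eif2ak2 at 2.97-fold, and in the other groups 0 members did. The labels do not say that replicates were separate cultures or animals, so p-values measure only the spread between these samples, which may be technical. In bulk RNA, fewer cells of a type and less RNA per cell cannot be told apart.

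A promoter window, 250 bases before to 50 bases after the start site, was in the RefSeq table (build GRCm38.p6) for 54 of the 68 members. The palindrome CACGTG, an E-box read the same on both strands and bound by basic helix-loop-helix proteins such as MYC with MAX, was in the windows of 12 members (22.2%), against 8.09% of all 27025 genes with a window. Among genes tested after the knockdown the shares were 24% of members (12 of 50) and 12.4% of all genes. The stretches around the motif, in capitals, are shown for 6 members that went different ways in the results below. Eef2 (chr10:81176563-81176618, plus strand), Eif3f (chr7:108934322-108934377, plus), Eif4g1 (chr16:20672648-20672703, plus) and Eef2k (chr7:120842775-120842830, plus) rose after the knockdown. Eif3k (chr7:28981902-28981957, minus) and Eif1b (chr9:120492557-120492605, plus) fell.
Eef2: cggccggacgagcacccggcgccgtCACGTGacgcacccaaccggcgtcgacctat
Eif3f: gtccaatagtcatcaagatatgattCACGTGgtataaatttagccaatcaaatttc
Eif4g1: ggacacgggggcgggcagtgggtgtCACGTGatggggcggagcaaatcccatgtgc
Eef2k: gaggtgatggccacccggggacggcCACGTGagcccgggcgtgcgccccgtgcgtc
Eif3k: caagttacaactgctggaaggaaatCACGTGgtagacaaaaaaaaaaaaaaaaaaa
Eif1b: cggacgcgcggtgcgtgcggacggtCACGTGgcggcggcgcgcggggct
The motif began 24 bases before the start site in Eif1b and 68 bases before it in Eif3f. Of the 12 members with the motif 7 rose, 3 fell and 2 were not called after the knockdown. Of the 38 tested members with a window and no motif, 18 rose, 11 fell and 9 were not called. With CPX the 12 split into 1 that rose, 4 that fell and 7 not called. Of the tested members with a window and no motif, 5 rose, 14 fell and 20 were not called with CPX. A match is a description of these letters, not a binding site.

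After the Pcbp1 knockdown the translation factors moved in both directions, and subunits of 1 complex parted. The mRNAs of Eif4ebp2 and Pdcd4, which encode inhibitors of initiation, rose 4.26-fold and 3.48-fold, and Eif2s2, the beta subunit of eIF2, rose 3.84-fold. Of the 13 eIF3 subunits 7 rose and 5 fell. Eef2 rose 2.30-fold while all 5 tested Eef1 genes fell by 1.18-fold to 1.56-fold. The smallest of these falls was that of Eef1e1, a member of the tRNA synthetase complex, whose call was lost in some alternatives given below. Across the members 62 passed the filter of 1 RPM in 2 libraries, and 28 rose, 19 fell and 15 were not called at a limma adjusted p under 0.05. That is 75.8% called, against 56.2% of all 11575 genes tested (34.6% higher and 21.6% lower). The median log2 fold change was 0.12 over members and 0.10 over all genes. With TMM scaling, which brings the median of all genes to 0.00, 23 members rose and 23 fell, against 29.4% and 26.7% of all genes. With quantile normalization 25 members rose and 25 fell, where 3080 and 3440 of all 11575 genes did. Folds are on the log2(RPM + 0.5) scale, which understates changes of low genes. The groups did not overlap for 32 members that were higher and 25 that were lower, beside 45.8% and 32.7% of all genes (78.5% in all), and they overlapped for Eif1, Eif1a, Eif2b1, Eif4ebp1 and Eif6.

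**Figure D1:**
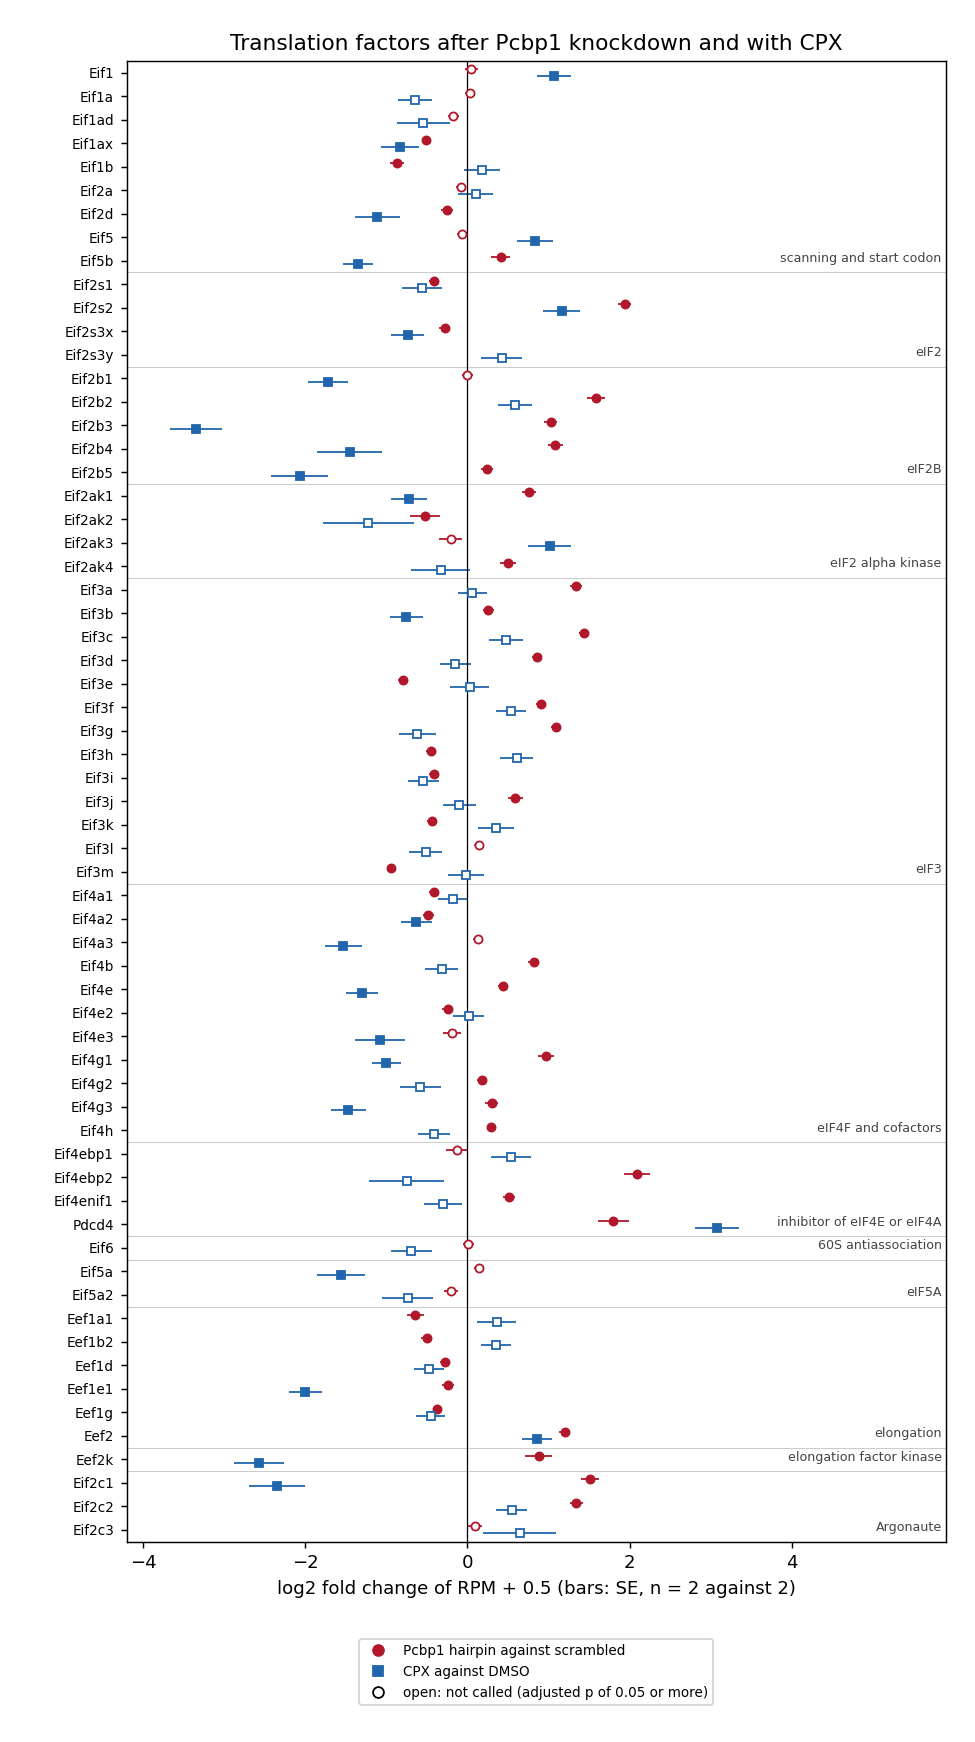
Log2 fold change of RPM + 0.5 (horizontal axis, with SE bars, 2 libraries against 2) for every tested member, grouped by role, with red circles for the Pcbp1 hairpin against scrambled and blue squares for CPX against DMSO. Filled symbols were called, and the members spread from -0.94 (Eif3m) to 2.09 (Eif4ebp2) after the knockdown and from -3.35 (Eif2b3) to 3.08 (Pdcd4) with CPX.

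The eIF3 subunits went both ways. Eif3c, a core subunit, was at 209 and 209.5 RPM with the scrambled hairpin and at 573 and 562 RPM with the Pcbp1 hairpin (log2 1.44, SE 0.06, limma adjusted p = 4.64e-06). Eif3a, the largest subunit, was at 245 and 225 RPM and then at 577 and 615 RPM (1.34, SE 0.07, limma adjusted p = 8.31e-06). Eif3g, which contacts mRNA, was at 128 and 130 RPM and then at 282 and 271 RPM (1.09, SE 0.06, limma adjusted p = 9.53e-06). For these subunits both knockdown libraries were above both controls. Eif3m went the other way, from 501 and 497 RPM to 255 and 266 RPM (-0.94, SE 0.06, limma adjusted p = 1.49e-05). Eif3e, known also as Int6, went from 563 and 554 RPM to 317 and 325 RPM (-0.80, SE 0.06, limma adjusted p = 2.60e-05). In both, the knockdown libraries stood well below the controls. The call of Eif3e was lost once length and GC content were taken out (limma adjusted p = 0.180). Eif3f (0.91), Eif3d (0.86), Eif3j (0.59) and Eif3b (0.26) also rose, and Eif3h (-0.45), Eif3k (-0.44) and Eif3i (-0.41) also fell. Eif3l, at 0.15, was not called (limma adjusted p = 0.0699). With TMM scaling 6 subunits rose and 5 fell, and Eif3b was no longer called (0.0858). The Eif3e reads may be shared with the pseudogenes Eif3s6-ps1 and Eif3s6-ps2, which went from 8.54 and 8.10 to 3.87 and 3.36 RPM and from 21.2 and 23.5 to 12.7 and 11.5 RPM.

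**Figure D2:**
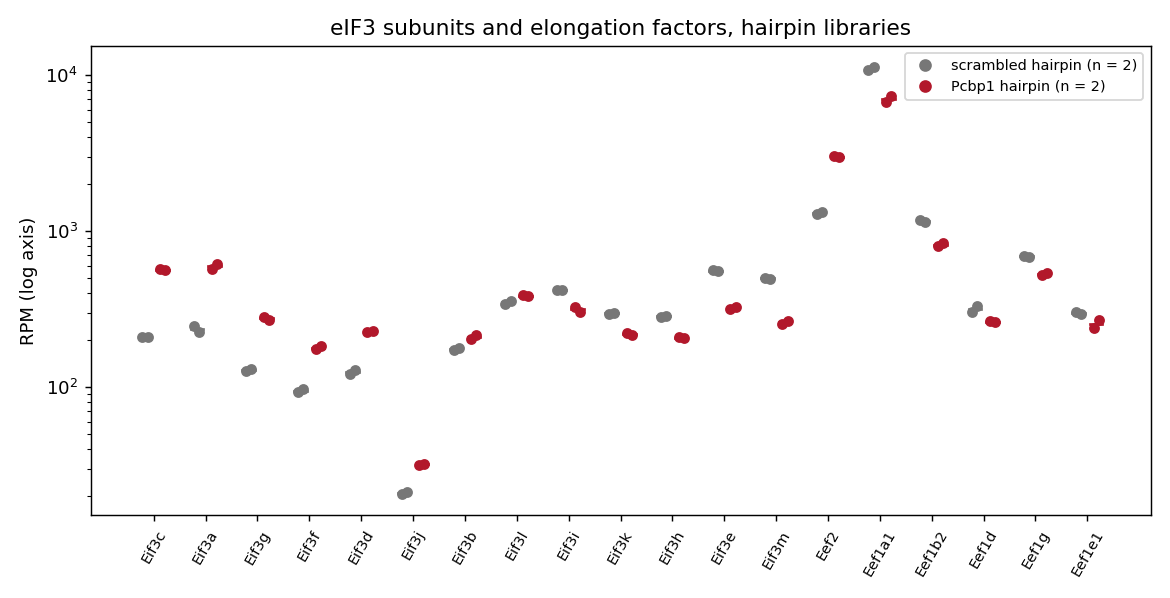
RPM (log axis) of the 13 eIF3 subunits and 6 Eef genes in the 2 scrambled (grey) and 2 Pcbp1 hairpin (red) libraries, with points for libraries and short lines for group means. Eif3c, Eif3a, Eif3g and Eef2 are higher in both knockdown libraries, and Eif3m, Eif3e and Eef1a1 are lower in both.

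Within eIF2 the subunits also parted. Eif2s2 (beta) was at 51.8 and 46.1 RPM in the controls and at 197 and 181 RPM after the knockdown (1.94, SE 0.08, limma adjusted p = 5.47e-06). Eif2s1, the alpha subunit that stress kinases phosphorylate, was at 540 and 533 RPM and then at 402 and 403 RPM (-0.41, SE 0.06, limma adjusted p = 5.30e-04). Eif2s3x, the gamma subunit gene on the X chromosome, was at 78.5 and 77.7 RPM and then at 64.0 and 64.6 RPM (-0.28, SE 0.07, limma adjusted p = 0.00881). The groups did not overlap for any of the 3. Eif2s3y, the Y-linked copy of the gamma subunit gene, was listed at 0 in all 4 hairpin libraries. In eIF2B, 4 of 5 subunits rose and Eif2b1 (alpha) stayed uncalled at 70.2 and 68.1 against 69.7 and 68.4 RPM (limma adjusted p = 0.981). Eif2b2 (beta) went from 9.10 and 9.01 to 27.3 and 29.1 RPM (1.59, SE 0.11, limma adjusted p = 2.55e-05), so that both knockdown libraries were far above the controls. Eif2b3 (gamma) and Eif2b4 (delta) rose by 1.03 and 1.09, and Eif2b5, the catalytic epsilon subunit, by 0.24, a call lost without scrambled replicate 1 (limma adjusted p = 0.132) and with TMM scaling (0.153). With TMM scaling 3 rose and 0 fell, and with quantile normalization 3 rose and 1 fell. Of the eIF2 alpha kinases, Eif2ak1 (HRI, the heme-regulated kinase) was at 24.9 and 26.7 RPM and then at 44.3 and 43.9 RPM (0.76, SE 0.09, limma adjusted p = 2.18e-04). Eif2ak4 (GCN2, which senses uncharged tRNA) was at 25.3 and 28.9 and then at 37.4 and 39.4 RPM (0.50, SE 0.10, limma adjusted p = 0.00373, and 0.327 with length and GC content taken out). Both kinases were above the control range in both knockdown libraries. Eif2ak2 (PKR, which senses double-stranded RNA) was low, at 4.87 and 5.80 and then at 3.74 and 3.36 RPM (-0.52, SE 0.19, limma adjusted p = 0.0430), and it lost the call without scrambled replicate 2 (0.210) or either Pcbp1 hairpin library (0.0713 and 0.164). Eif2ak3 (PERK, the kinase of the endoplasmic reticulum) was at 23.1 and 22.8 and then at 22.8 and 17.3 RPM (-0.20, limma adjusted p = 0.253).

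Among the factors that work at the cap, Eif4g1, the main eIF4G scaffold, was at 366 and 456 RPM in the controls and at 784 and 816 RPM after the knockdown (0.97, SE 0.10, limma adjusted p = 1.37e-04). Eif4e, the cap-binding protein, was at 208 and 196 RPM and then at 273 and 275 RPM (0.44, SE 0.06, limma adjusted p = 6.13e-04). Both genes were higher in both knockdown libraries, and Eif4b, a cofactor of the helicase, rose by 0.82. The helicases themselves fell. Eif4a1 was at 795 and 780 RPM and then at 602 and 580 RPM (-0.41, SE 0.06, limma adjusted p = 7.17e-04), and its reads may be shared with the pseudogene Eif4a-ps4, which went from 1449 and 1367 to 1007 and 1025 RPM. Eif4a2, the paralog, was at 607 and 563 RPM and then at 429 and 408 RPM (-0.48, SE 0.06, limma adjusted p = 5.26e-04, and 0.819 with length and GC content taken out). Eif4a3, a helicase of the exon junction complex, was at 138 and 146 and then at 154 and 157 RPM (0.13, limma adjusted p = 0.108). The other scaffolds gave smaller values. Eif4g3 was at 52.0 and 49.8 and then at 60.1 and 65.9 RPM (0.30, limma adjusted p = 0.0134), and the call was lost with TMM scaling (0.0747) and without Pcbp1 hairpin replicate 2 (0.0780), while with length and GC content taken out its sign turned (-0.22, limma adjusted p = 0.0514). Eif4g2 (DAP5, a scaffold without the eIF4E site) was at 1151 and 1102 and then at 1251 and 1298 RPM (0.18, limma adjusted p = 0.0477), 0.08 above the median of all genes. Its call was lost in each fit that left out 1 library (0.0546 to 0.243). Eif4e2, a cap-binding repressor, went from 145 and 157 to 129 and 126 RPM (-0.24, limma adjusted p = 0.0157, and 0.0949 without scrambled replicate 2). Eif4e3 was at 19.8 and 21.1 and then at 18.2 and 17.6 RPM (-0.19, limma adjusted p = 0.170). Eif4h (0.30) also rose, which makes 6 higher and 3 lower of 11 tested, and 4 and 4 with TMM scaling.

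Genes for inhibitors of eIF4E or eIF4A gave 2 of the 3 highest folds among the members. Eif4ebp2 was at 3.53 and 3.14 RPM in the controls and at 14.9 and 16.8 RPM after the knockdown (2.09, SE 0.16, limma adjusted p = 3.23e-05). Pdcd4 was at 1.83 and 1.81 RPM and then at 8.38 and 6.85 RPM (1.80, SE 0.19, limma adjusted p = 1.59e-04). Relative to the median of all genes these are 1.99 and 1.70, and neither pair of groups came near the other. Eif4enif1, the eIF4E transporter, rose by 0.52. Eif4ebp1 did not follow, with overlapping groups at 37.6 and 30.9 and at 34.5 and 28.0 RPM (-0.13, limma adjusted p = 0.430). Eif4ebp3 was at 0.14 RPM at most in the hairpin libraries and was not tested.

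In the scanning and start codon group 1 of 9 rose and 3 fell. Eif1b, a paralog of the start codon gatekeeper Eif1, was at 69.0 and 75.2 RPM and then at 40.3 and 38.2 RPM (-0.87, SE 0.08, limma adjusted p = 8.33e-05). Eif1 itself was at 102 and 98.6 and then at 111 and 96.7 RPM, with overlapping groups (0.05, limma adjusted p = 0.644). The same holds for another pair. Eif1ax, the X-linked eIF1A gene, was at 257 and 254 RPM and then at 184 and 176 RPM (-0.50, SE 0.06, limma adjusted p = 2.52e-04). Eif1a was at 372 and 361 and then at 370 and 381 RPM (0.04, limma adjusted p = 0.633). So 1 paralog of each pair was lower in both knockdown libraries, and the other overlapped its controls, although reads of such close paralogs can be split unevenly. Eif2d fell by 0.25, a call lost without scrambled replicate 1 or either Pcbp1 hairpin library (limma adjusted p = 0.105, 0.0654 and 0.0711). Eif5b, the GTPase of subunit joining, rose by 0.41, a call lost with TMM scaling (0.0618) and without Pcbp1 hairpin replicate 2 (0.0756), while Eif5, Eif2a and Eif1ad were not called (-0.06, -0.08 and -0.17). With TMM scaling, and also with quantile normalization, 0 of the 9 rose and 5 fell, and once length and GC content were removed there were 3 rises and 4 falls, with Eif1a (0.48, limma adjusted p = 2.96e-04) and Eif1 (0.25, 0.0308) among the rises. Eif5a was at 940 and 917 and then at 1013 and 1036 RPM (0.14, limma adjusted p = 0.0816), and Eif5a2 at 60.5 and 59.1 and then at 48.5 and 55.6 RPM (-0.20, limma adjusted p = 0.0832). Eif6, which keeps the large ribosomal subunit apart, was not called (0.01).

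The elongation genes parted too. Eef1a1, the tRNA carrier, was at 10729 and 11250 RPM in the controls and at 6725 and 7351 RPM after the knockdown (-0.64, SE 0.11, limma adjusted p = 0.00146, and 0.0839 with quantile normalization). Eef2, the translocase, was at 1291 and 1321 RPM and then at 3028 and 2980 RPM (1.202, SE 0.07, limma adjusted p = 1.15e-05). Eef1a1 was lower, and Eef2 higher, in both knockdown libraries. Its kinase Eef2k, at 4.44 and 3.98 and then at 8.44 and 7.90 RPM, rose as well (0.88, SE 0.16, limma adjusted p = 0.00268), a call lost with length and GC content taken out (0.0729). The exchange factor genes Eef1b2, Eef1g and Eef1d fell by 0.50, 0.37 and 0.27, and Eef1e1, a member of the tRNA synthetase complex, by 0.24. The call of Eef1e1 was lost without scrambled replicate 1 (limma adjusted p = 0.0693) or Pcbp1 hairpin replicate 1 (0.134). Eef1a2, the muscle and neuron paralog, was at 0.07 RPM at most in the hairpin libraries. Eef1a1 held 40.1% and 41.3% of the members' summed reads in the controls and 26.8% and 28.4% after the knockdown. The members together held 2.68% and 2.73% of the library totals in the controls and 2.51% and 2.59% after it. Without Eef1a1 their sum went the other way, from 16047 and 16022 RPM to 18342 and 18537 RPM. Of the Argonaute genes, Eif2c1 was at 22.2 and 19.6 and then at 55.8 and 65.3 RPM (1.51, SE 0.11, limma adjusted p = 2.72e-05), Eif2c2 rose by 1.34, and Eif2c3 was not called (0.10). Eif2c4 and Eif2c5 were under the filter in both experiments, as was Eif4e1b.

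The members that rose after the knockdown had longer transcripts than those that fell. The longest annotated transcript had a median of 3804 nt among the 28 that rose, 1939 nt among the 19 that fell and 2299 nt among the 15 not called. Over all tested genes the same medians were 3878, 2044.5 and 2702 nt. Across the 62 members the log2 fold change correlated with log2 length at a Pearson r of 0.34, and across 11287 genes at 0.33, where points share libraries and genes are not independent replicates. With GC content r was 0.21 over the members and 0.23 over all genes. Eif3g rose although its transcript, at 1101 nt, was shorter than those of Eif3m (1283 nt) and Eif3e (1506 nt), which fell. Eif1ax fell with 5172 nt, the longest transcript among the members that fell. With a trend of length and GC content taken out, 26 members rose and 16 fell, where 3465 and 1843 of all 11287 genes did. Calls given above that were then lost included Eif2s1 (limma adjusted p = 0.212), Eif3b (0.688), Eif4h (0.153), Eif2b5 (0.130), Eif5b (0.112) and Eef1e1 (0.993), beside Eif3e, Eif4a2, Eif2ak2, Eif2ak4, Eif4g2, Eif4g3 and Eef2k. Of the members not called above, 6 were then called as rises: Eif1a (limma adjusted p = 2.96e-04), Eif2a (0.0138), Eif4a3 (0.0208), Eif5a (0.0226), Eif1 (0.0308) and Eif3l (0.0318). Another 2 were called as falls, Eif2ak3 (limma adjusted p = 0.0162) and Eif1ad (0.0400).

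**Figure D3:**
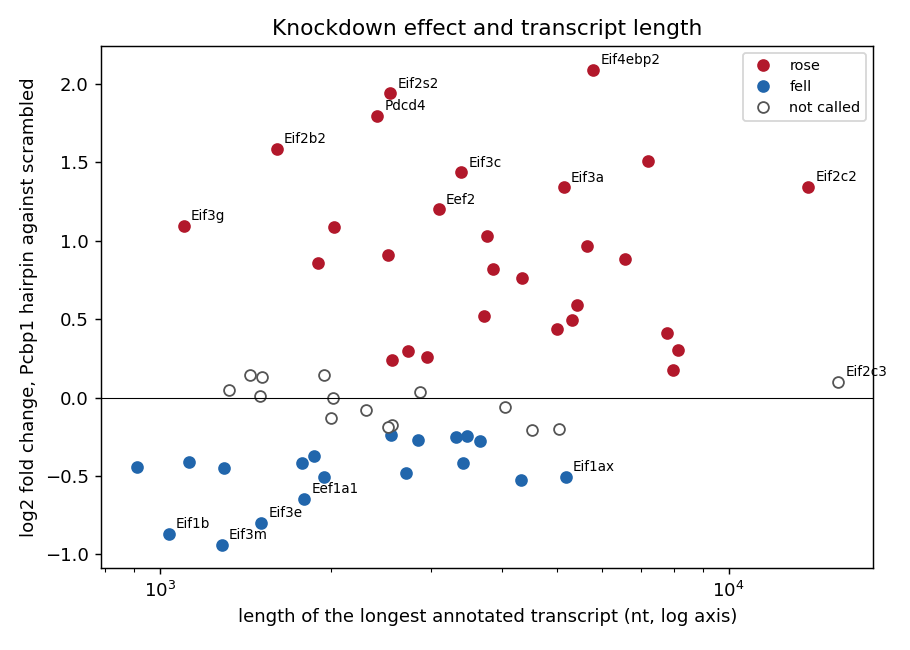
Log2 fold change after the knockdown (vertical axis) against the length of the longest annotated transcript (nt, log axis) for the 62 tested members, red where the member rose, blue where it fell and open where it was not called. The members that rose have a median of 3804 nt and those that fell 1939 nt, with Eif3g and Eif2b2 among the short genes that rose.

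CPX lowered more translation factors than it raised. Eif2b3, the gamma subunit of eIF2B, fell 10.2-fold, Eef2k 5.93-fold and Eif2b5 4.19-fold, and Eif4g1, Eif4g3 and Eif4e fell 2.00-fold to 2.76-fold. Pdcd4 rose 8.45-fold and led the 6 genes that rose, with Eif2s2, Eif1, Eif2ak3, Eef2 and Eif5. Of 13 eIF3 subunits, 12 were not called. Of 63 tested members 6 rose, 20 fell and 37 were not called, so 41.3% were called against 44.7% of all 11485 genes (20% higher and 24.8% lower). The share called was thus near the background. The median was -0.47 over members and -0.12 over all genes. With TMM scaling, which moves the median of all genes to 0.00, 8 members rose and 15 fell, against 22.5% and 22.5% of all genes. The groups did not overlap for 16 members that were higher and 37 that were lower, beside 34.2% and 42.1% of all genes (76.3% in all). Many calls needed both DMSO libraries: without DMSO replicate 1 there were 1 rise and 5 falls, and without DMSO replicate 2 there were 1 and 9. The calls over all 11485 genes went from 5139 to 2103 and 2355 in these fits. The calls of Pdcd4, Eif2b3, Eef2k, Eif2c1, Eif2b5 and Eef1e1 held in each of the 4 fits that left out 1 library.

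In eIF2B, 4 of 5 subunits fell. Eif2b3 was at 99.7 and 97.7 RPM in DMSO and 11.98 and 7.12 RPM in CPX (-3.35, SE 0.33, limma adjusted p = 0.00256). Eif2b5 was at 161 and 155 RPM and then at 26.6 and 52.2 RPM (-2.07, SE 0.35, limma adjusted p = 0.00789). Eif2b1 was at 67.7 and 72.2 RPM and then at 22.9 and 19.1 RPM (-1.72, SE 0.25, limma adjusted p = 0.00497), a call lost without DMSO replicate 1 (0.0534) or replicate 2 (0.0585). In these genes every CPX value was below every DMSO value, and the 2 CPX libraries differed by over 1.5-fold for Eif2b3 and Eif2b5. Eif2b4 also fell (-1.45, limma adjusted p = 0.0321), whereas Eif2b2 was at 60.1 and 59.3 and then at 90.2 and 89.8 RPM (0.59, limma adjusted p = 0.0670). With TMM scaling 1 subunit rose and 4 fell, and without either DMSO library 0 rose and 2 fell. In eIF2, Eif2s2 was at 524 and 426 RPM and then at 1220 and 918 RPM (1.16, SE 0.23, limma adjusted p = 0.0120), with both CPX libraries higher, and the call was lost without DMSO replicate 1 (0.0545) or replicate 2 (0.0999). Eif2s3x was at 231 and 213 and then at 123 and 144 RPM (-0.73, limma adjusted p = 0.0320), a call lost with TMM scaling (0.0636) and without either DMSO library (0.281 and 0.204). The Y-linked Eif2s3y, listed at 0 in the hairpin libraries, was at 56.8 and 43.4 RPM in DMSO and 72.3 and 61.6 RPM in CPX (0.42, limma adjusted p = 0.224). Eif2s1 was not called (-0.56). Of the kinases, Eif2ak3 (PERK) was at 27.0 and 30.5 RPM and then at 51.0 and 67.1 RPM (1.01, SE 0.26, limma adjusted p = 0.0274, and 0.219 and 0.152 without DMSO replicate 1 or 2). Eif2ak1 (HRI) was at 65.3 and 66.1 and then at 38.1 and 41.3 RPM (-0.72, limma adjusted p = 0.0464), and this call was lost with TMM scaling (0.0761) and without either DMSO library (0.313 and 0.316). So PERK mRNA stood above, and HRI mRNA below, the DMSO range in both CPX libraries. Eif2ak2 at 7.93 and 7.21 and then at 5.47 and 1.51 RPM, and Eif2ak4 at 36.4 and 31.8 and then at 36.7 and 19.8 RPM, were not called (limma adjusted p = 0.127 and 0.489).

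**Figure D4:**
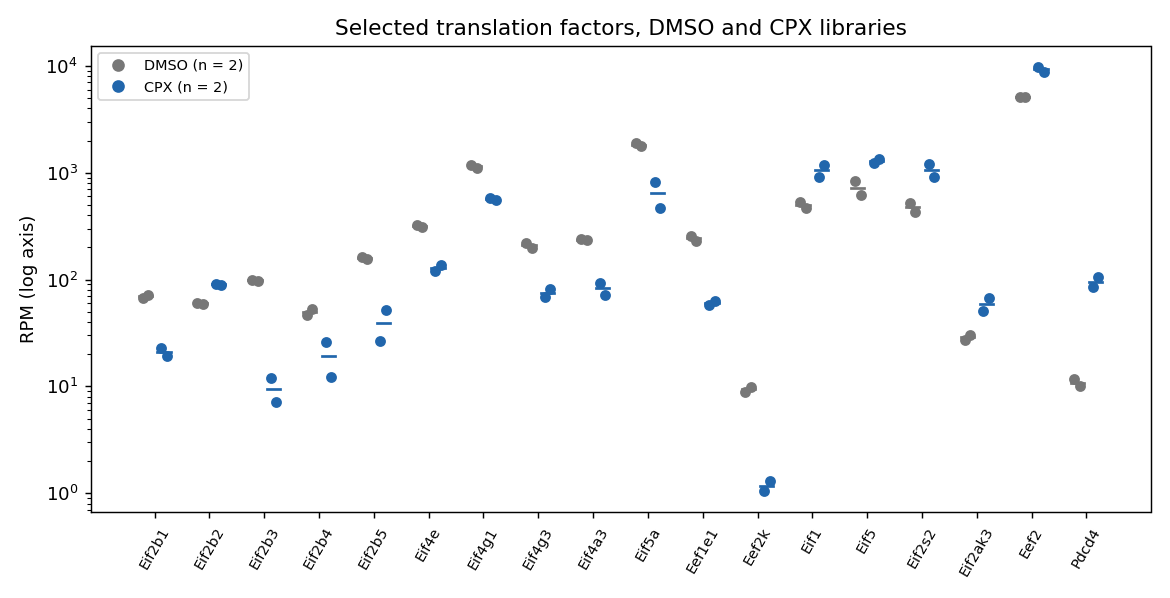
RPM (log axis) of 18 members in the 2 DMSO (grey) and 2 CPX (blue) libraries, with points for libraries and short lines for group means. Eif2b3 and Eef2k are far below their DMSO values in both CPX libraries, and Pdcd4 is far above.

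At the cap, the scaffolds and the cap-binding protein were lower with CPX. Eif4g1 was at 1188 and 1102 RPM in DMSO and 586 and 556 RPM in CPX (-1.002, SE 0.18, limma adjusted p = 0.00875). Eif4g3 was at 220 and 198 RPM and then at 68.9 and 82.0 RPM (-1.47, SE 0.21, limma adjusted p = 0.00504). Eif4e was at 321 and 309 RPM and then at 119 and 136 RPM (-1.30, SE 0.20, limma adjusted p = 0.00547). The groups were apart for all 3, and each call was lost without DMSO replicate 1 (0.110, 0.0631 and 0.0681), and those of Eif4g1 and Eif4e also without replicate 2 (0.0781 and 0.0567). Eif4a3 was at 240 and 233 RPM and then at 93.6 and 71.5 RPM (-1.53, SE 0.22, limma adjusted p = 0.00520, and 0.0523 without DMSO replicate 1). Eif4a2 was at 392 and 387 and then at 234 and 270 RPM (-0.63, limma adjusted p = 0.0420), a call lost with TMM scaling (0.0948) and without either DMSO library (0.293 and 0.271). Eif4e3 was at 13.3 and 15.7 and then at 6.88 and 6.29 RPM (-1.08, limma adjusted p = 0.0351), and it lost its call without any 1 of the 4 libraries (0.0526 to 0.276). The general helicase Eif4a1 differed little, at 2370 and 2237 against 2118 and 1943 RPM (-0.18, limma adjusted p = 0.442). Eif4g2, at 1282 and 1212 and then at 675 and 1029 RPM, was not called (-0.58, limma adjusted p = 0.112, and 0.0334 without CPX replicate 2). Eif4e2 overlapped, at 178 and 173 against 172 and 184 RPM. Eif4b (-0.32) and Eif4h (-0.41) were not called, so 0 of 11 rose and 6 fell. The falls numbered 5 with TMM scaling, 0 without DMSO replicate 1 and 2 without DMSO replicate 2.

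Pdcd4 gave the largest rise of all members. It was at 11.6 and 10.03 RPM in DMSO and 85.7 and 106 RPM in CPX (3.08, SE 0.27, limma adjusted p = 0.00242), far above the DMSO range in both libraries. Eif4ebp1 was at 56.7 and 45.3 and then at 80.3 and 68.0 RPM (0.54, limma adjusted p = 0.125). Eif4ebp2 was at 72.2 and 80.5 RPM in DMSO and 28.0 and 72.9 RPM in CPX (-0.75, SE 0.46, limma adjusted p = 0.235), so 1 CPX library was low and the other within the DMSO range. Without CPX replicate 2 it was called (limma adjusted p = 0.0144). Eif4enif1 was not called (-0.30).

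Of the start codon factors, Eif1 was at 528 and 469 RPM in DMSO and 917 and 1186 RPM in CPX (1.07, SE 0.21, limma adjusted p = 0.0122, and 0.0751 and 0.106 without DMSO replicate 1 or 2). Eif5, the GTPase activator of eIF2, was at 841 and 614 RPM and then at 1234 and 1335 RPM (0.84, SE 0.22, limma adjusted p = 0.0293), a call lost without any 1 of the 4 libraries (0.0806 to 0.256). Both CPX libraries were higher for each. Eif1ax was at 194 and 177 and then at 119 and 89.9 RPM (-0.83, limma adjusted p = 0.0330), a call lost with TMM scaling (0.0725) and without either DMSO library (0.251 and 0.177). Eif1a was at 335 and 278 and then at 181 and 209 RPM (-0.65, limma adjusted p = 0.0507), and Eif1b at 46.8 and 47.4 and then at 54.3 and 52.5 RPM (0.18, limma adjusted p = 0.540). Eif5b (-1.35, limma adjusted p = 0.0571 without DMSO replicate 1) and Eif2d (-1.11, 0.123 and 0.257 without DMSO replicate 1 or 2) fell, and Eif2a and Eif1ad were not called (0.10 and -0.54). Among eIF3 subunits only Eif3b was called, at 846 and 789 RPM in DMSO and 543 and 431 RPM in CPX (-0.75, SE 0.20, limma adjusted p = 0.0301), and with TMM scaling or without either DMSO library 0 of 13 were called. The other 12 subunits ran from -0.62 (Eif3g) to 0.61 (Eif3h). Without CPX replicate 1, 4 subunits were called as falls, and without CPX replicate 2, 3 were called as rises.

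Eif5a was at 1903 and 1771 RPM in DMSO and 820 and 471 RPM in CPX (-1.56, SE 0.30, limma adjusted p = 0.0105, and 0.0540 without DMSO replicate 1). Both CPX libraries were below the DMSO range, and they differed from each other by over 1.5-fold. Eif5a2, at 18.1 and 19.0 and then at 9.22 and 12.9 RPM, was not called (-0.74, limma adjusted p = 0.109). Eif6 was not called either (-0.69). In elongation, Eef2 was at 5105 and 5130 RPM and then at 9746 and 8811 RPM (0.86, SE 0.19, limma adjusted p = 0.0161), a call lost with quantile normalization (0.261) and without any 1 library (0.118 to 0.241). Its kinase Eef2k was at 8.85 and 9.92 RPM and then at 1.04 and 1.30 RPM (-2.57, SE 0.31, limma adjusted p = 0.00336). So the mRNAs of the translocase and of its inhibitory kinase lay on opposite sides of their controls. Eef1e1 was at 255 and 230 RPM and then at 57.8 and 62.8 RPM (-1.999, SE 0.20, limma adjusted p = 0.00280). Eef1a1, at 14521 and 11509 and then at 19003 and 14521 RPM, overlapped (0.36, limma adjusted p = 0.270), and Eef1b2, Eef1d and Eef1g were not called (0.36, -0.47 and -0.45). Eef1a2 was listed at 0 in all 4 libraries. Of the Argonaute genes, Eif2c1 was at 85.2 and 97.7 RPM and then at 13.1 and 23.5 RPM (-2.35, SE 0.34, limma adjusted p = 0.00515), while Eif2c2 (0.55) and Eif2c3 (0.65) were not called. The members together held 4.41% and 3.94% of the totals with DMSO and 5.06% and 4.34% with CPX.

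The effects of the knockdown and of CPX differed for most members when compared in 1 fit of all 8 libraries, which share no control. The experiments also differed in transduction, in RNA selection and in the Y-linked Eif2s3y (0 RPM in the hairpin libraries, 43.4 to 72.3 RPM in the others). In this contrast the part of such differences cannot be told apart from that of the treatments. The contrast of knockdown minus CPX effect was called for 42 of 62 members, 31 higher and 11 lower after the knockdown, where 51.3% of all 10430 genes were called (35.2% and 16.1%). With TMM scaling the members split into 20 and 14, against 27.3% and 23.4% of all genes. The median difference was 0.70 over members and 0.40 over all genes. All 5 eIF2B subunits were higher after the knockdown than with CPX, and this count of 5 stood in each alternative run for the contrast. The largest was Eif2b3, which rose by 1.03 after the knockdown and fell by 3.35 with CPX, a difference of 4.38 (SE 0.33, limma adjusted p = 1.09e-04). Eif2c1 differed by 3.86 (SE 0.38, limma adjusted p = 2.70e-04), Eef2k by 3.45 (SE 0.29, limma adjusted p = 1.55e-04) and Eif4ebp2 by 2.84 (SE 0.56, limma adjusted p = 0.00488). In the other direction stood Pdcd4, which rose in both and more with CPX (-1.28, SE 0.29, limma adjusted p = 0.00893), and Eif2ak3 (-1.22, SE 0.29, limma adjusted p = 0.0108, and 0.0505 without Pcbp1 hairpin replicate 2). Eif3h (-1.06, SE 0.20, limma adjusted p = 0.00408) and Eif1b (-1.05, SE 0.18, limma adjusted p = 0.00292) followed, each called as a fall after the knockdown and not called with CPX. For Eef2 the difference of 0.35 (SE 0.17) was not called (limma adjusted p = 0.131, and 0.0238 with quantile normalization).

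In both experiments 3 members rose, Eef2, Eif2s2 and Pdcd4, where 5.24% of all genes did. A further 11 rose after the knockdown and fell with CPX (11.9% of all genes): Eef2k, Eif2ak1, Eif2b3, Eif2b4, Eif2b5, Eif2c1, Eif3b, Eif4e, Eif4g1, Eif4g3 and Eif5b. Eef1e1, Eif1ax, Eif2d, Eif2s3x and Eif4a2 fell in both (5.76% of all genes), and 0 members fell after the knockdown and rose with CPX (2.31%). Called in the knockdown alone were 14 rises and 14 falls, called with CPX alone were 3 rises and 4 falls, and 8 members were called in neither. The shares of all genes in these last classes were not counted. In single experiments, 56.2% of all genes were called after the knockdown and 44.7% with CPX. RNA selection differed between the experiments, so levels are not compared between them.

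**Figure D5:**
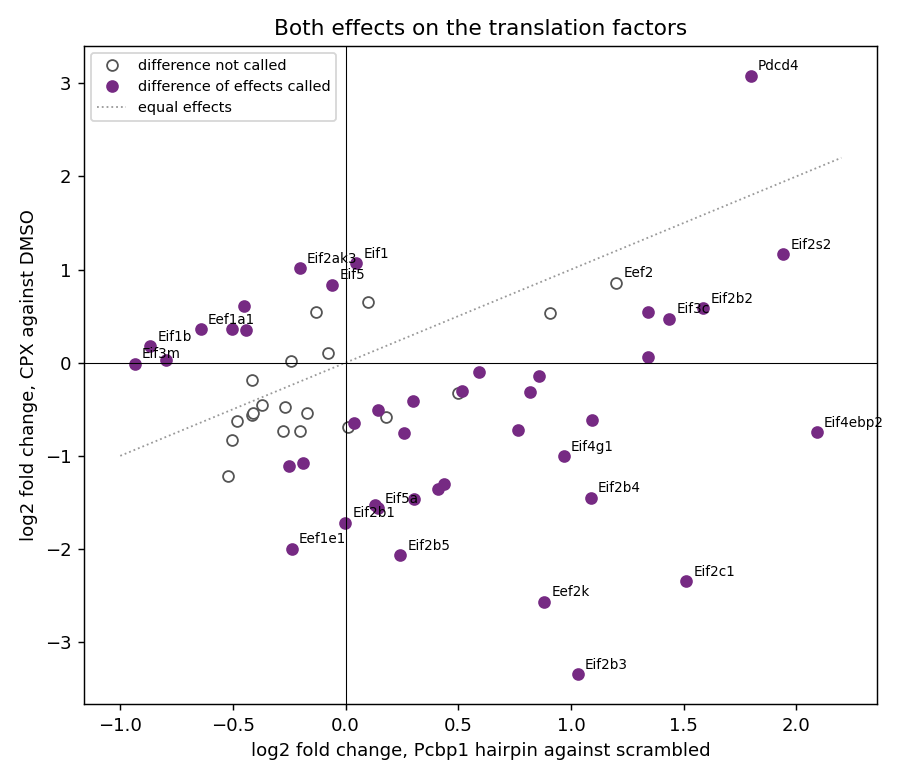
Log2 fold change after the knockdown (horizontal axis) against that with CPX (vertical axis) for the 62 members tested in both, filled where the difference of the effects was called, with a dotted line of equal effects. Eif2b3, Eef2k, Eif2c1 and Eif4g1 lie to the lower right, higher after the knockdown and lower with CPX, while Pdcd4 and Eif2s2 lie to the upper right.

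Genes that act on these factors were taken from 7 lists. The first held 12 genes of mTORC1, the growth kinase complex that phosphorylates the 4E-BPs, with its regulators, Larp1 and other kinases. Of these, 6 rose and 0 fell after the knockdown (median 0.48). Larp1, a repressor of ribosomal and elongation factor mRNAs, led with 191 and 199 and then 626 and 635 RPM (1.69, limma adjusted p = 3.21e-06). Rptor (1.13), Mtor (0.64), Akt1s1 (1.23), Tsc1 (0.79) and the mTORC1 inhibitor Tsc2 (1.27) rose too. The 50% called compares with 56.2% of all genes. Among genes of this list chosen after their values were seen, Mlst8, a subunit of the complex, was called as a fall with TMM scaling, quantile normalization and length and GC content taken out (limma adjusted p = 0.0355, 0.00917 and 0.00261). With length and GC content taken out, Rps6kb2 was called as a fall too (0.0104), and the calls of Mtor (0.623) and Tsc1 (0.113) were lost. With CPX 3 rose and 5 fell (median -0.63), with Larp1 at 1209 and 1081 and then 379 and 266 RPM (-1.85, limma adjusted p = 0.00394), Tsc2 at -1.95, and the mTORC1 activator Rheb at 1.70. Of 8 genes of the eIF2 phosphatase and ATF4 axis, 3 rose and 4 fell after the knockdown (median -0.25), and 4 rose and 0 fell with CPX (median 1.52). Ppp1r15b, a regulatory subunit of the eIF2 alpha phosphatase, was at 156 and 167 and then at 273 and 271 RPM after the knockdown (0.75, limma adjusted p = 4.63e-05), beside the rises of Ppp1r15a (0.61) and Sesn2 (0.48). The call of Sesn2 was lost with quantile normalization (limma adjusted p = 0.0588) and with length and GC content taken out (0.245). The 4 that fell, named after their values were seen, were the transcription factor Atf4 (-0.45), Asns (-0.39), Chac1 (-1.23) and Trib3 (-1.05), and these 4 calls were lost without the trend of the variance (limma adjusted p of 0.0593 to 0.0838). With CPX, Ddit3 (CHOP) was at 8.24 and 10.2 and then at 146 and 207 RPM (4.17, limma adjusted p = 0.00242), and Trib3 at 13.5 and 4.14 and then at 151 and 229 RPM (4.53, limma adjusted p = 0.00367). Sesn2 rose by 2.61. Of the hypusine enzymes, Dohh was at 95.9 and 96.0 RPM in DMSO and 37.3 and 40.8 RPM in CPX (-1.29, limma adjusted p = 0.00768, and 0.0952 and 0.0919 without DMSO replicate 1 or 2), and Dhps was not called (-0.33). Neither was called after the knockdown (-0.27 and -0.15).

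Diphthamide is the modified histidine of eEF2, and of 5 tested genes of its synthesis 0 rose and 3 fell with CPX (median -1.79): Dph1 at 33.4 and 31.4 and then at 6.04 and 3.95 RPM (-2.61, limma adjusted p = 0.00394), Dnajc24 (-2.30) and Dph5 (-1.79). After the knockdown only Dph5 was called, at 111 and 109 and then at 64.6 and 65.4 RPM (-0.76, limma adjusted p = 5.37e-05, and 0.101 with length and GC content taken out). Of 5 poly(A) binding genes 2 rose (Pabpc1 at 0.83 and Pabpc4 at 0.88) and 2 fell after the knockdown, among them Paip2, an inhibitor of the poly(A)-binding protein, from 86.1 and 84.6 to 52.1 and 51.4 RPM (-0.72, limma adjusted p = 9.06e-05, and 0.706 with length and GC content taken out). With CPX 1 rose, Paip2, from 67.6 and 86.9 to 269 and 358 RPM (2.01, limma adjusted p = 0.00371), so this inhibitor lay on opposite sides of its controls in the experiments. Of 7 termination and recycling genes 2 rose and 2 fell after the knockdown, with the release factor Gspt1 at 0.85 and Mcts1 at -1.05 (-0.15, limma adjusted p = 0.141 with length and GC content taken out). With CPX 0 of 6 rose and 3 fell, with Denr at 83.1 and 88.0 and then at 13.5 and 9.20 RPM (-2.88, limma adjusted p = 0.00278), Gspt1 at -1.78 and Abce1 at -1.23. Of 9 mitochondrial translation factors 4 rose and 1 fell after the knockdown (median 0.09), with the elongation factor Tufm at 2.96 and 3.35 and then at 17.8 and 20.6 RPM (2.43, limma adjusted p = 1.85e-05), and Gfm1 at 1.45. With CPX 0 rose and 3 fell (median -0.96), with Tsfm at 24.0 and 25.7 and then at 1.98 and 2.23 RPM (-3.28, limma adjusted p = 0.00249), Tufm at -1.48 and Gfm1 at -1.28, both calls lost without either DMSO library (limma adjusted p of 0.0611 to 0.124). The medians over all genes were 0.10 and -0.12. The share called after the knockdown was 87.5% in the ATF4 list, 80% in the poly(A) list, 57.1% in the termination list, 55.6% in the mitochondrial list, 20% in the diphthamide list and 0% for hypusine, beside 56.2% of all genes. With CPX the shares were 66.7% for mTORC1, 60% for diphthamide, 50% for the ATF4, hypusine and termination lists, 33.3% for the mitochondrial list and 20% for the poly(A) list, beside 44.7% of all genes. With 2 to 12 genes in a list, these shares are descriptions.

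The authors' deposited table for the knockdown calls 22 members higher and 19 lower of 62 with an adjusted p, and 40 members were called both there and here, 0 of them in opposite directions. Their table for CPX calls 6 higher and 15 lower of 65, with 20 called in both and 0 opposite. Of the members called here after the knockdown, 7 are not called in the authors' deposited table: Eif4h (adjusted p = 0.0562), Eif5b (0.0904), Eif2ak2 (0.153), Eif3b (0.194), Eif4g3 (0.235), Eif2b5 (0.293) and Eif4g2 (0.504). For CPX the authors' deposited table does not call 6 of those called here: Eif5 (adjusted p = 0.0519), Eif1ax (0.0611), Eif2s3x (0.0698), Eif2ak1 (0.0731), Eif3b (0.0818) and Eif4a2 (0.121). The authors' deposited table calls Eif1ad after the knockdown (adjusted p = 0.0298) and Eif2c4 with CPX (0.0133). Here Eif1ad was not called and Eif2c4 was below the level needed for a test.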

How the data were processed

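RNA sequencing of 8 Th1 libraries was used, 2 in each of 4 groups named by the labels. Per the submitters' processing notes, the tools were HTSeq, STAR, cutadapt and DESeq and the build was mm9, with no versions given. The deposited per-library values were handled as a score. They are whole numbers and not RPM, and they look like counts times 1 factor per library, rounded. In the hairpin libraries the factors read from the low values were 0.74, about 1 (0.995), 0.775 and 0.735. For scrambled replicate 2 a factor of 1 fitted as well, so its values may be plain counts. The authors' mean signals followed from the deposited hairpin values with a largest relative residual of 1.45e-10, so those means were taken from these values. The authors' result tables hold, per the file headers, a mean signal, log2 fold changes with SE, a test statistic (a score) and p-values. From 1 constant line on (value 23487630 in every library) the row labels of the deposited table were displaced by 1 line. Labels were set right by matching the authors' mean signals, which left 33820 genes with settled values, and of the members this touches Pdcd4 alone.

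RPM was computed as value over library total, without the constant line, times 1e+06. Genes at 1 RPM or more in 2 of an experiment's 4 libraries were tested on log2(RPM + 0.5) with limma 3.58.1 (trended variance) in R 4.3.3, all genes in 1 fit per experiment and all 8 libraries in 1 fit for the difference. The call threshold was 0.05 on the Benjamini-Hochberg adjusted p, and "rose" and "fell" mean called. The design named a count test for the knockdown if its values were counts. Since the low values of most hairpin libraries read as rescaled, limma was used. A trend of length and GC content was fitted with mgcv 1.9.3. Transcript lengths come from the reference annotation's longest transcript per gene. Every member is accounted for by role. Those with values per library are the 6 largest rises and falls of each experiment, 28 members listed for their role, the 4 largest differences in each direction, further called members, and up to 3 genes with the smallest p of each other list. The members and lists were chosen with earlier results of these data known.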

Additional observations from a re-analysis of the deposited data

How the results depend on the processing

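Scaling, pseudocount, filter, variance trend, the length and GC trend, mitochondrial RNA in the totals and each library in turn were varied. Of the single-gene results under these alternatives 3772 kept their side of the threshold, 273 lost and 141 gained a call and 5 reversed. Reversed means a change of sign with a call in either fit. Changes of sign where neither fit was called are among the 3772. The alternatives with edgeR and DESeq2 were not run, because the values were handled as rescaled. TMM and median ratio scaling within limma, a fit without the variance trend and other pseudocounts were added for the knockdown after seeing the data, and for CPX median ratio scaling and totals without mitochondrial genes. All 5 reversals were in the knockdown with length and GC content taken out: Eif4g3 (-0.22), Eif2a (0.24), Paip1 (0.19), Abce1 (0.0335) and Eef1e1 (9.42e-04). The CPX calls fell from 26 to 17, and CPX falls from 20 to 13, without a filter, where more genes were tested. Over all genes that fit called 4245 of 19111, of which 2082 were lower. Leaving out 1 library gave 6 to 31 CPX calls, 1 to 8 rises and 5 to 25 falls, the lowest without DMSO replicate 1. For the difference of effects TMM scaling gave 20 members higher after the knockdown in place of 31 (the cause was not tested), and leaving out 1 library gave 7 to 12 lower in place of 11. The labels do not say that a replicate number marks a shared batch. With only 2 pairs the deviations of same-numbered libraries correlated at 0.29 in the hairpin experiment and 0.10 in the CPX experiment. In both hairpin groups the CD8 genes went with the replicate number, at 90.5 and 92.0 RPM in replicate 1 and 11.9 and 11.6 RPM in replicate 2. The main fits took no account of such pairing. With a replicate block 30 members rose and 21 fell after the knockdown, where 4434 and 2969 of all 11575 genes did. With CPX 9 members rose and 22 fell in this fit, where 2585 and 3092 of all 11485 genes did. The difference split into 32 and 12 members, beside 3670 and 1692 of all 10430 genes. With 2 libraries a group and values that look rescaled, differences near the threshold and members under the filter were not resolvable.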
